A study of Mus musculus with 7 samples.

Results

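The cytosolic ribosomal protein genes were the 74 genes of the expression table whose symbols read Rpl or Rps followed by a number and at most 1 letter (a, x or y), together with Rplp0, Rplp1, Rplp2 and Rpsa. They were chosen by symbol alone, with no measured value, from a table of 20464 rows, and none of the 74 symbols was listed more than once. 29 of them encode proteins of the small ribosomal subunit and 45 encode proteins of the large subunit. Sequencing covered 7 libraries made from EML, a line of mouse blood progenitors immortalised with a dominant-negative retinoic acid receptor, whose cells can form erythroid, myeloid and lymphoid cells. Annexin V-negative, that is non-apoptotic, cells had been sorted by the surface marker CD34 into a CD34-negative group (4 libraries) and a CD34-positive group (3 libraries). All 7 libraries carry the strain label C57BL/6 and no treatment is named. A bone marrow tissue label and a postnatal age label stand beside a source label that names the EML line. All groups rest on this 1 line as a model. Each library also carries a number in its description: replicate 1 of each group has number 3, replicate 2 has number 2, while number 4 belongs to replicate 3 of each group and to CD34-negative replicate 4, which is marked 4a. The number of CD34-positive replicate 1 is written 3a. The libraries are named here by number and group, from 2-negative and 2-positive to 4-negative, 4a-negative and 4-positive. What the numbers stand for is not given in the sources used here.

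Ribosomal proteins assemble with ribosomal RNA into the small subunit, which reads the messenger RNA, and the large subunit, which joins amino acids. Their messenger RNAs are short and abundant and mostly begin with a run of pyrimidines, the terminal oligopyrimidine (TOP) tract, through which growth signals control their translation. Mammalian genomes hold many processed pseudogenes of these genes, which are copies of the messenger RNA put back into the genome and often nearly identical to the parent gene. In blood formation, loss of 1 copy of several of these genes causes Diamond-Blackfan anaemia, a failure of red cell production.

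The coding sequences of 2 genes that lost nearly all signal in the libraries numbered 4 and of the 2 that kept the most are shown first, because the values below differ between them. Sequences are from GENCODE M21 (GRCm38), begin at the start codon and are at most 300 bases long. Capitals mark bases covered by a stretch of 50 bases that also occurs in a transcript of another annotated gene, and lower case marks bases that are not. The genes that lost signal are Rps12 (chromosome 10, 300 of 396 coding bases), of the small subunit, and Rplp2 (chromosome 7, 300 of 345 coding bases), an acidic protein of the ribosomal stalk.
Rps12: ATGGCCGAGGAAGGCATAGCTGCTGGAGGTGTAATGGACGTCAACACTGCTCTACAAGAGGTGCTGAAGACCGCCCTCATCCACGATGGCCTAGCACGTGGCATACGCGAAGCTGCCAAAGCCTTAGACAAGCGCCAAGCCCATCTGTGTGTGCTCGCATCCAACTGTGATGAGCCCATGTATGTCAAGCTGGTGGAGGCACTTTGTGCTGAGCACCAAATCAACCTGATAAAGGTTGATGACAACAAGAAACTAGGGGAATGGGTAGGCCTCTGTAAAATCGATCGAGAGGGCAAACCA
Rplp2: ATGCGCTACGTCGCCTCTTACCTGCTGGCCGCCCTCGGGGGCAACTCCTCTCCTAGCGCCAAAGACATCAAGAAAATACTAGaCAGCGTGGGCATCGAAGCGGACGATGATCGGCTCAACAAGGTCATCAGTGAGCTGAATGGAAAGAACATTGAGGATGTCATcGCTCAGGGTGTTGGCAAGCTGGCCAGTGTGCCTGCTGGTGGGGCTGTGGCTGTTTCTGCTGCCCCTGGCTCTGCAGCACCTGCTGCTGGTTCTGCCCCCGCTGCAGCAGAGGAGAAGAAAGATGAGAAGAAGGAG
The genes that kept the most are Rpl4 (chromosome 9, 300 of 1257 coding bases), which lines the tunnel through which the new protein leaves, and Rps9 (chromosome 7, 300 of 582), at the entry of the messenger RNA.
Rpl4: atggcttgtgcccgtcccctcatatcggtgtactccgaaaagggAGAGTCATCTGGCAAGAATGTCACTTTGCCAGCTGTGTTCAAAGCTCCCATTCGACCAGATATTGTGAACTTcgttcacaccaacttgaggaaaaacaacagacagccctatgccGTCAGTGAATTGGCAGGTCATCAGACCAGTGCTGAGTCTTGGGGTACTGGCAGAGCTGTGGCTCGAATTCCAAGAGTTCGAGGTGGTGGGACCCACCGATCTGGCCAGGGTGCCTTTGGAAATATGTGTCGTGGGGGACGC
Rps9: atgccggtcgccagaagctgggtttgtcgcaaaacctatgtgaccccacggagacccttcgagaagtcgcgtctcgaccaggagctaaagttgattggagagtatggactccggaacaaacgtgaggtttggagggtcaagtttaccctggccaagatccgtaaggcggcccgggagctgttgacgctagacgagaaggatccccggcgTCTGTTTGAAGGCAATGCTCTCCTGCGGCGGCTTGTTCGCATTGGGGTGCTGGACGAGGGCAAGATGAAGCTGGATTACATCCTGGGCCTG
Of the bases shown, 300 of 300 were shared in Rps12 and 298 of 300 in Rplp2. The same count was 213 of 300 in Rpl4 and 91 of 300 in Rps9. It covers only the bases shown and differs from the measure used further below, the share of 50-base stretches over the whole coding sequence. By that measure Rps12 shared 100%, Rplp2 66.2%, Rpl4 20.3% and Rps9 43.0%.

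Levels are in FPKM, the number of sequenced fragments per kilobase of a transcript, scaled to the library's mapped total, so they can be compared between genes. The depth behind them is unknown. Each library listed 8606 to 9117 genes at 1 FPKM or more, and the summed FPKM was 551700 to 734000 in the libraries numbered 2 and 3 and 260400 to 432000 in those numbered 4. Cd34, which checks the sort, stood at 91.8, 19.3, 2.67 and 6.02 FPKM in CD34-negative replicates 1 to 4 and at 147, 256 and 154 FPKM in CD34-positive replicates 1 to 3. The groups did not overlap, but the gap was smallest between the libraries numbered 3. The progenitor markers Cd34, Kit and Ly6a summed to 75.9 to 591 FPKM in the libraries numbered 2 and 3 and to 222 to 561 FPKM in those numbered 4. The 6 erythroid markers summed to 53.8 to 2006 and to 134 to 598 FPKM, the 7 stromal and endothelial markers to 53.0 to 160 and to 67.9 to 126 FPKM, and the 5 hepatocyte markers to 39.2 to 197 and to 35.1 to 149 FPKM. Nearly all of the hepatocyte sum was Trf, the iron carrier transferrin, and nearly all of the stromal and endothelial sum was Pdgfrb and Pecam1. The B and T lymphoid markers summed to less than 1 FPKM in each library. Col1a2, Col3a1, Kdr, Alb, Ttr and Cd3e were listed at 0 throughout. Whether replicates were cultured separately is not stated, so the p-values below reflect a spread between libraries that may be technical.

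The ribosomal protein genes lost most of their signal in the libraries numbered 4. They made up 29.4% and 27.6% of the summed FPKM in the CD34-negative and CD34-positive libraries numbered 3 and 37.0% and 33.3% in those numbered 2. Among the libraries numbered 4 they made up 2.21% in 4-negative, 4.07% in 4a-negative and 3.63% in 4-positive. The members' own FPKM summed to 9547, 11080 and 9443 in that order, and the FPKM of all genes to 432000, 272100 and 260400. The lower share in 4-negative than in 4-positive thus went with a larger total, at a nearly equal sum of the members. The mean share was 31.8% ± 4.18 (SD, n = 4) in the libraries numbered 2 and 3 and 3.30% ± 0.972 (SD, n = 3) in those numbered 4, and the 2 sets did not overlap. The median gene of the 74 stood at 1808 to 3123 FPKM in the libraries numbered 2 and 3 and at 32.8, 47.1 and 34.3 FPKM in 4-negative, 4a-negative and 4-positive. In bulk libraries, fewer cells of a type and less RNA per cell cannot be told apart. Whether the libraries numbered 4 were processed like the others is not known either. In the libraries numbered 2 and 3, 59 to 64 of the 100 genes with the highest FPKM were ribosomal protein genes. In those numbered 4 the count was 9, 9 and 17. Between 61 and 65 members exceeded 1000 FPKM in each library numbered 2 or 3, against 1 to 3 in each library numbered 4, where 2 or 3 members lay below 1 FPKM.

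**Figure D1:**
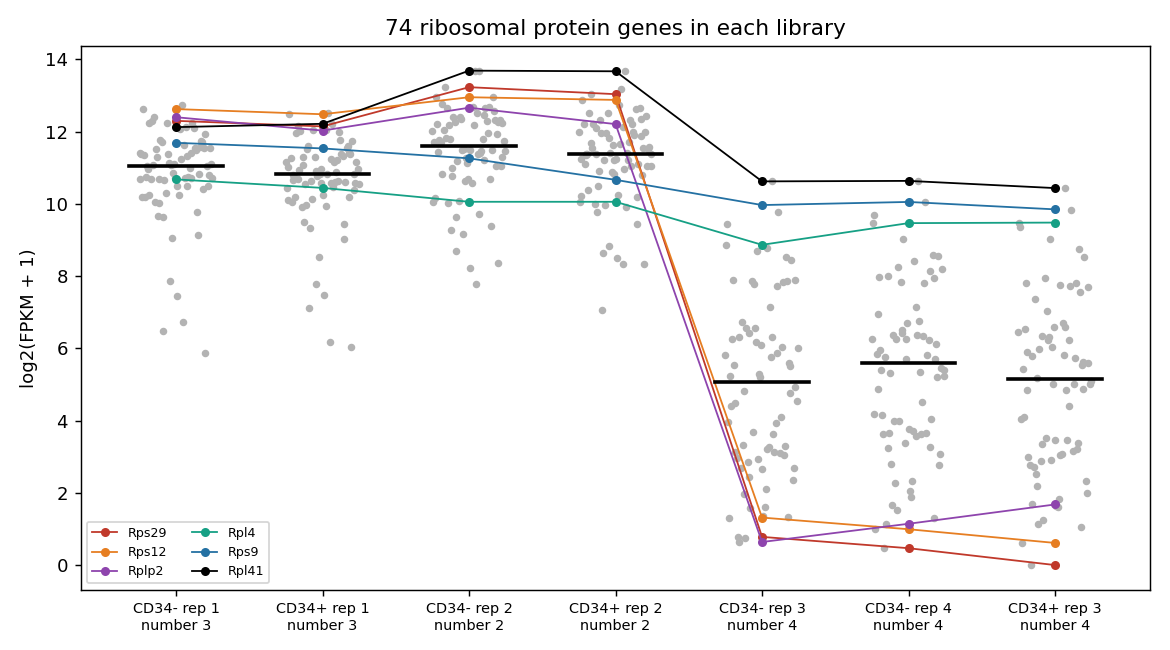
Level of each of the 74 ribosomal protein genes (dots, log2(FPKM + 1)) in each of the 7 libraries, with the median as a black bar and 6 genes joined by lines. The medians lie between 1808 and 3123 FPKM in the libraries numbered 2 and 3 and between 32.8 and 47.1 FPKM in those numbered 4, where Rps29, Rps12 and Rplp2 come close to 0 and Rpl41, Rps9 and Rpl4 stay high.

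The libraries numbered 4 were compared with those numbered 2 and 3 over 9259 genes, each at 1 FPKM or more in 3 libraries or more, in limma on log2(FPKM + 1) with the CD34 group as a covariate. This split was chosen with earlier results on these genes known, so the comparison describes these libraries. The submitters' processing notes name 2 genome builds and both TopHat and TopHat2 without saying which library each belongs to, so whether the processing differed along this split is not known, and its part in the differences was not tested. All 74 genes passed the minimum, 70 of them with at least 1 FPKM in each of the 7 libraries, and Rps29, Rps12, Rplp2 and Rpl24 passed through the libraries numbered 2 and 3. 74 of 74 fell (limma, Benjamini-Hochberg adjusted p between 7.18e-07 and 0.0475), where 30.7% of all tested genes fell and 5.93% rose, although 6 of the 74 lay above 0 after quantile normalization. The 74 genes were also lower without overlap in the FPKM of single libraries, against 35.4% of all tested genes. Their median log2 difference was −5.71, and that of the tested genes outside the list was −0.28. 51 of the 100 lowest differences of all tested genes belonged to them. Small and large subunit genes had medians of −5.72 and −5.69.

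How the counts of all genes split depended on the scaling. With the values as deposited, 549 genes rose and 2842 fell, with a median of −0.29 over all tested genes. With quantile normalization 1529 rose and 1478 fell (median 0.02), with median-ratio scaling 1355 and 1524 (median −0.02), and with each library scaled to the FPKM of the genes outside the list 1087 and 672 (median 0.19). Under these 3 scalings 65, 71 and 71 of the ribosomal protein genes fell, with medians of −4.15, −5.39 and −5.15, and Rpl4 rose under quantile normalization.

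**Figure D2:**
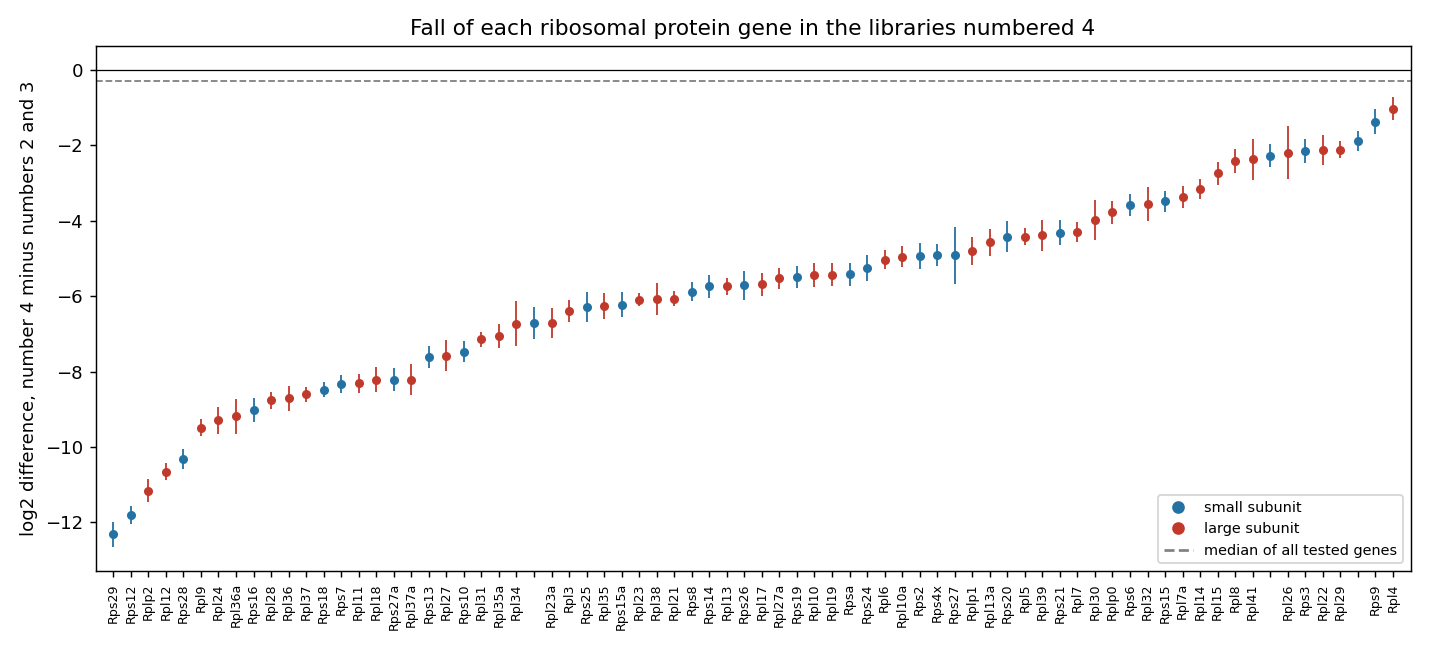
Log2 difference between the libraries numbered 4 and those numbered 2 and 3 for each ribosomal protein gene, ordered by size, with the moderated standard error as bars and the median of all tested genes as a dashed line. The differences run from −12.32 for Rps29 to −1.03 for Rpl4 and genes of both subunits spread over most of that range. Under quantile normalization, 6 of the 74 lay above 0, among them Rpl29, Rpl4, Rps3 and Rps9. Not every gene is labelled.

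The loss was uneven. As a share of the mean FPKM in the libraries numbered 2 and 3, the median member kept 1.90% in the libraries numbered 4, and the range ran from 0.00532% to 48.8%. 25 members kept at most 1%, as did 0.497% of all tested genes, and 62 kept at most 10%, as did 1.97% of all tested genes. 12 members kept over 10% and 3 kept over 25%. Rps29, which encodes a small zinc-binding protein, stood at 5028 and 4519 FPKM in the CD34-negative and CD34-positive libraries numbered 3 and at 9591 and 8387 FPKM in those numbered 2. In the libraries numbered 4 it was at 0.717 FPKM in 4-negative and 0.382 FPKM in 4a-negative and was listed at 0 in 4-positive. This gene, among the most abundant members in 4 libraries, was thus near 0 in the other 3. Its log2 difference was −12.32 with the pseudocount of 1 and further from 0 with 0.1, and it passed the minimum only through the libraries where it was high, as Rps12 did. Rps12 stood at 6299 and 5705 FPKM in the libraries numbered 3, CD34-negative first, and at 7909 and 7512 FPKM in those numbered 2. It had 1.49, 0.989 and 0.529 FPKM in 4-negative, 4a-negative and 4-positive (log2 difference −11.81).

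The other members with the largest falls were Rplp2, Rpl12, Rps28 and Rpl9. Rpl12 binds ribosomal RNA at the base of the stalk, next to the P proteins. It stood at 2731 to 5114 FPKM in the libraries numbered 2 and 3 and at 1.07 to 1.49 FPKM in those numbered 4 (log2 difference −10.66, SE 0.23). Rps28, a small-subunit protein, had 4182 to 6776 and then 2.55 to 4.02 FPKM, and Rpl9, of the large subunit, had 1593 to 2362 and then 1.39 to 1.98 FPKM. Their differences were −10.31 (SE 0.27) and −9.49 (SE 0.23). No library numbered 4 came near the others in any of the 4 genes.

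At the other end, Rpl4 stood at 1634 and 1388 FPKM in the libraries numbered 3, CD34-negative first, and at 1063 FPKM in each of those numbered 2. It had 465, 706 and 713 FPKM in 4-negative, 4a-negative and 4-positive, below every other library, and kept 48.8% (log2 difference −1.03, SE 0.31, adjusted p = 0.0368, limma). Rps9 had 3297 and 2961 FPKM in the libraries numbered 3 and 2448 and 1621 FPKM in those numbered 2. It kept 998, 1060 and 919 FPKM in the libraries numbered 4, or 38.4% (log2 difference −1.38, SE 0.33, adjusted p = 0.0168, limma). Rpl29, a heparin-binding protein of the large subunit, kept 23.4%, and Rps3, at the entry of the messenger RNA, kept 22.2%. Rpl22, which developing T cells require, kept 21.1%. Their differences were −2.12, −2.15 and −2.13.

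Calls at this end were the least firm. Rpl4 missed the threshold without each of the 7 libraries in turn, with adjusted p between 0.0535 (without 2-positive) and 0.124 (without 4-positive). Rpl26, a protein near the exit of the tunnel, had the highest adjusted p, 0.0475, and missed it without any of 5 libraries, with adjusted p of 0.0788 without 2-positive, 0.102 without 2-negative, 0.18 without 4-positive, 0.124 without 4-negative and 0.0991 without 4a-negative. Rps9 missed it without 4-positive (0.106), 4-negative (0.0513) or 4a-negative (0.0568), and Rpl41 without 4-positive (0.109). The other 70 members kept their call without each library. Over all genes, 69 rose and 995 fell without 4-positive, 957 rose without 3-negative, 171 rose and 1858 fell without 4a-negative, and 181, 293 and 335 rose without 4-negative, 2-positive and 2-negative.

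Among the 6 members of highest mean level, Rpl41, Rplp1 and Rpl8 behaved otherwise than Rps29, Rps12 and Rps28. Rpl41, an extremely short basic peptide of 75 coding bases, stood at 4456 to 13170 FPKM in the libraries numbered 2 and 3 and was the highest member in each library numbered 4, at 1573, 1588 and 1383 FPKM. It kept 17.1% (log2 difference −2.37, SE 0.54). Rpl8, which lies close to the peptidyl transferase centre, kept 18.9%, with 4075 to 6490 and then 879 to 1068 FPKM. In the stalk, the acidic proteins P1 and P2 bind to P0 and recruit elongation factors to the ribosome. Their genes differed strongly. Rplp1 had 5842 to 13120 FPKM in the libraries numbered 2 and 3 and 437, 339 and 214 FPKM in 4-negative, 4a-negative and 4-positive, and Rplp0 kept 206 to 291 of 2271 to 4869 FPKM. Rplp2 had 4169 to 6468 FPKM and then 0.556, 1.21 and 2.20 FPKM. Rplp0 thus kept 7.43%, Rplp1 3.77% and Rplp2 0.0255%. Rpsa, the small-subunit protein that doubles as a laminin receptor, kept 2.26%.

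10 of the genes mutated in Diamond-Blackfan anaemia were described as a group. All 10 fell, as 74 of 74 members did, with differences between −8.33 for Rps7 and −4.42 for Rpl5. Rps19, the gene most often mutated in the disease, stood at 1681 and 1486 FPKM in the libraries numbered 3, CD34-negative first, and at 2797 and 2102 FPKM in those numbered 2. It had 62.9, 41.5 and 33.4 FPKM in 4-negative, 4a-negative and 4-positive and kept 2.28%. Rpl5 and Rpl11 bind 5S ribosomal RNA together and restrain the p53 regulator Mdm2 when ribosome assembly fails. Rpl5 kept 4.47% of 753 FPKM and Rpl11 0.311% of 2716 FPKM. Rps14, also lost in the 5q- syndrome, kept 1.87%. Rps26, Rps24 and Rpl35a kept 1.77%, 2.55% and 0.694%, and Rps7 and Rps10 kept 0.263% and 0.537%.

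The order of the genes was nearly the same in the 3 libraries numbered 4 and unlike that in the other 4. Across the 74 genes, Pearson's r of log2(FPKM + 1) was 0.983 to 0.99 among the 3 libraries numbered 4. It was 0.993 and 0.95 within the pairs numbered 3 and 2 and 0.884 to 0.898 between libraries numbered 2 and 3. Between a library numbered 4 and any other it was 0.102 to 0.203 (Spearman's rho 0.08 to 0.212). These are descriptions across genes, which share a library, and genes are not independent replicates. The members were also further apart. Their SD was 1.23 to 1.32 on the log2(FPKM + 1) scale in the libraries numbered 2 and 3 and 2.44 to 2.52 in those numbered 4. The 10 highest members held 29.5% to 31.7% of the members' FPKM in the former and 64.7% to 67.4% in the latter. Rpl41, Rps9, Rpl8, Rpl4, Rpl32 and Rps15 were among the 10 highest in each of the 3 libraries numbered 4, and of these Rpl4, Rps9 and Rps15 were among the 10 highest in none of the other 4 libraries.

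The libraries numbered 3 and 2 also differed from each other, by far less. 67 of 74 members were lower in value in the pair numbered 3, with a median log2 difference of −0.62 against 0.15 over all tested genes. Rpl26 averaged 60.9 FPKM in the libraries numbered 3 and 324 FPKM in those numbered 2 (log2 difference −2.40), and Rpl34 averaged 448.5 and 1732 FPKM (−1.96). Rpl15, Rps6 and Rps9 went the other way, by 0.82, 0.66 and 0.65. Rps6 is the substrate of the S6 kinases that act below mTOR. With 2 libraries of each number and 1 of each CD34 group, these differences were not tested.

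Members differed in how much of their coding sequence occurs elsewhere in the genome, a property that the symbol rule did not use. In GENCODE M21, 73 of 74 members (98.6%) had at least 1 such 50-base coding stretch that also occurs in a transcript of another annotated gene, against 22.3% of 8652 other tested genes. The median member shared 93.1% of its stretches, and the median other gene 0%. The median member shared stretches with 9 other genes, and 97.5% of all such pairs of a member and another gene involved an annotated pseudogene. Members with less than 50% of their stretches shared numbered 10 and had a median difference of −2.22 in the libraries numbered 4, between −4.32 for Rps21 and −1.03 for Rpl4. The 64 with at least 50% shared had a median of −6.07, between −12.32 for Rps29 and −2.12 for Rpl29. The 29 with every stretch shared had a median of −6.73. The fall was therefore larger in the more shared group, with overlapping ranges. Across the 74 members Pearson's r between the shared percentage and the difference was −0.54 and Spearman's rho −0.51, as a description of genes measured in the same 7 libraries.

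**Figure D3:**
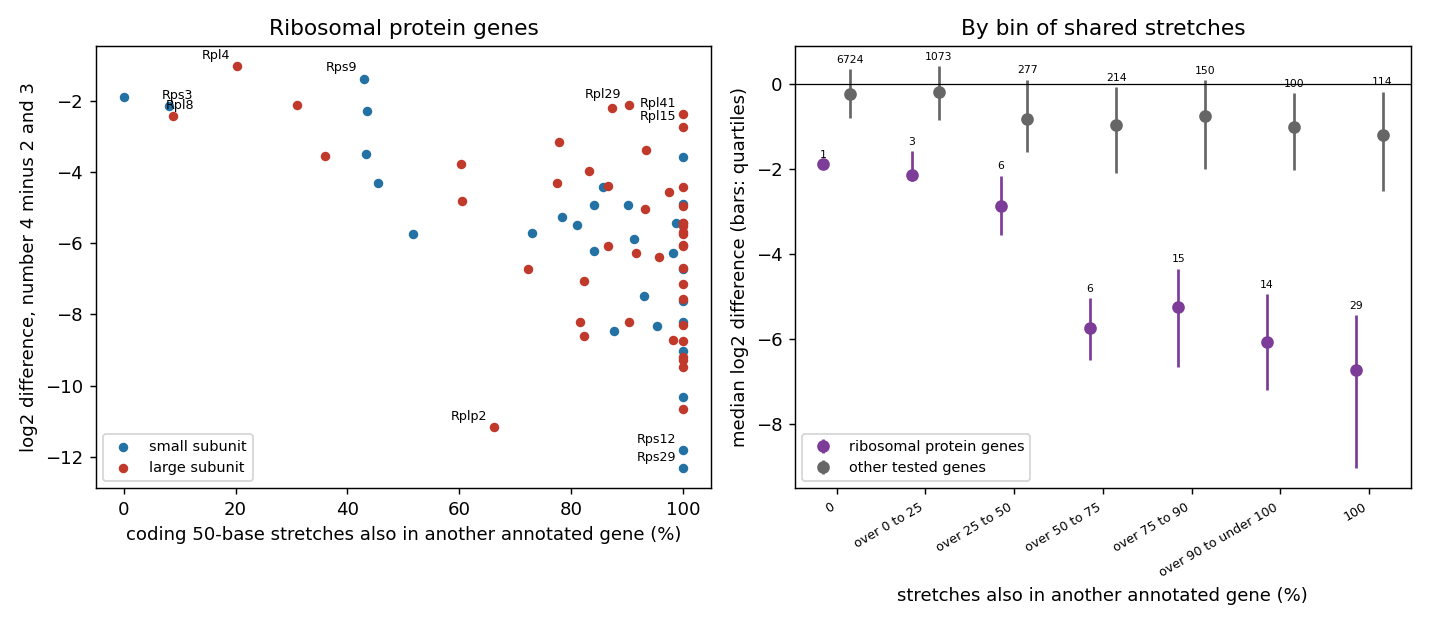
Left, percentage of the 50-base coding stretches of each ribosomal protein gene that also occur in another annotated gene against its log2 difference between libraries numbered 4 and those numbered 2 and 3. Right, medians and quartiles of that difference by bin, with the number of genes, for members and for other tested genes. Members under 50% lie between −4.32 and −1.03, members at 100% have a median of −6.73, and other genes at 100% have a median of −1.20.

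Rps3 shared 8.09%, Rpl8 8.73% and Rpl4 20.3%, and these 3 followed this relation, keeping 18.9% to 48.8% of their level. Other single genes departed from it in both directions. Rpl41 and Rpl15 shared 100% and yet differed by only −2.37 and −2.75. Rpl29 shared 90.3%, with 82 other genes, and differed by −2.12, and Rpl7a, with the most other genes, 120, differed by −3.38. Rplp2 shared 66.2%, with 2 other genes, and differed by −11.16. The number of other genes itself had an r of 0.09 with the difference across members (rho −0.15). Coding length had an r of 0.36 (rho 0.34). Members were short, with a median of 454.5 coding bases against 1368 in the other genes. Among the 8652 other tested genes, r with the shared percentage was −0.27 and with coding length 0.33. Their median difference was −0.25 at 0% and −1.20 at 100%, where the lowest of 114 genes was at −8.68. The part that shared sequence or length played in the result was not tested.

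Ribosomal protein genes and paralogues outside the symbol rule mostly fell too, 7 of the 8 tested, with a median of −2.02. Fau, which encodes a ribosomal protein fused to a ubiquitin-like protein, differed by −5.84 and the small-subunit scaffold Gnb2l1 by −1.89. Other mRNAs with a TOP tract, among them those of several translation factors, fell in 16 of 16 cases, with a median of −2.07. Eef1a1, which brings transfer RNA to the ribosome, averaged 7202 FPKM in the libraries numbered 2 and 3 and 1766 FPKM in those numbered 4. Tpt1 averaged 1790 and 32.9 FPKM and Eef2, the translocation factor, 2266 and 798 FPKM, with differences of −1.98, −5.72 and −1.53 for these 3 in that order. Under quantile normalization 4 relatives and 6 TOP mRNAs fell and 1 TOP mRNA rose, so these counts depended on the scaling.

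Of 28 ribosome biogenesis genes, 17 fell, with a median of −1.12. Fbl, the methyltransferase of ribosomal RNA, averaged 375 and then 16.2 FPKM and differed by −4.49, and Nop10 and Nhp2 differed by −1.75 and −2.09. Of 12 regulators of TOP translation and ribosome production, 4 fell, a share near the 30.7% of all tested genes that fell. Their median was −0.51, and it lay above 0 with quantile normalization (0.10) and with scaling to the genes outside the list (0.04). The translation repressor Eif4ebp1 and Maf1, the repressor of RNA polymerase III, were among those that fell (differences −1.46 and −1.43), and Myc had a difference of −0.46 and did not pass. These counts depended on the scaling: of the 12 regulators, 3 rose and 1 fell with quantile normalization, 2 rose and 1 fell with median-ratio scaling, and 0 rose and 0 fell with scaling to the genes outside the list. Mitochondrial ribosomal proteins fell in 56 of 75 cases (median −1.27), oxidative phosphorylation subunits in 68 of 79 (median −1.73) and proteasome subunits in 32 of 37 (median −1.43). These 3 lists had medians between that of all tested genes and that of the cytosolic ribosomal protein genes. Clustered histone genes went the other way, with 10 higher and 2 lower of 53 and a median of 0.25. Of 110 small nucleolar and nuclear RNA genes in the table, 87 were listed at 0 in the libraries numbered 2 and 3 and 17 were tested, of which 4 rose and 2 fell. Snora15, a small nucleolar RNA, averaged 17.1 FPKM in the libraries numbered 2 and 3 and 5177 FPKM in those numbered 4, and Snord22 averaged 83.9 and 3918 FPKM. Among the libraries numbered 4, Snora15 ran from 1210 to 9728 FPKM and Snord22 from 1123 to 8780 FPKM. The next highest RNA of the list by mean was listed at 0 in 4a-negative and did not pass (adjusted p = 0.138, limma). The part of these RNAs in the loss of ribosomal protein signal was not tested. With quantile normalization the falling counts were 11 biogenesis genes, 32 mitochondrial ribosomal proteins, 34 oxidative phosphorylation subunits and 12 proteasome subunits.

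Between CD34-positive and CD34-negative cells, no ribosomal protein gene passed the threshold. Over all 7 libraries limma called 0 of 9259 genes (0% in each direction), with 523 at an unadjusted p under 0.05, none of them a member. In this fit the fall in the libraries numbered 4 counted as spread, so a member could hardly be called. The SE of Rpl11 was 2.85, against 0.19 with the description number as a block. The members' median difference, CD34-positive minus CD34-negative, was 0.80 against 0.09 for all tested genes. 72 of 74 members were higher in value, where 37.9% of all tested genes were lower. CD34-negative cells hold 2 of their 4 libraries under number 4 and CD34-positive cells 1 of 3. With the description number as a block, the members' median was −0.17 against 0.04 for all tested genes. 62 of 74 members were then lower in value, as were 45.1% of all tested genes, and again 0 of 9259 genes passed. Cd34, the sorted marker, did not pass either, with a log2 difference of 3.27 (adjusted p = 0.0931, limma) with the block. Without the block it was 3.60 (adjusted p = 0.647, limma). A gene that did not pass may therefore still differ between the groups. At an unadjusted p under 0.05, 846 of the 9259 genes were lower and 1188 higher. Of the 74 members, 6 were lower and 0 higher at that p. For lower values, the members' share was no larger than that of all tested genes. The sign of the median turned with the block. It also turned without any of 4 single libraries, to −0.04 without 3-positive, −0.31 without 2-positive, −0.24 without 4-negative and −0.10 without 4a-negative. It was 1.65 without 3-negative, 1.95 without 2-negative and 2.69 without 4-positive. Without 3-negative, 15 genes were called higher and 6 lower, none of them a member. Without the 3 libraries numbered 4 it was −0.18 against 0.07 for all tested genes, with 64 of 74 members lower in value.

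No member had CD34 groups that did not overlap, where 3.01% and 2.67% of all tested genes were wholly lower or wholly higher in CD34-positive cells. Rpl11 had the smallest adjusted p with the block, 0.149 (log2 difference −0.58, SE 0.19, limma). Its FPKM were 2497 and 2142 in the libraries numbered 3, CD34-negative first, 3582 and 2644 in those numbered 2, and 8.99, 11.6 and 4.78 in 4-negative, 4a-negative and 4-positive, so that the CD34-positive library was lower within each number. Without the block, Rplp2 had the highest difference (1.93, SE 3.80) and Rps9 the lowest (−0.06, SE 1.06), both far from the threshold. A last fit rests on 1 CD34-positive library numbered 4 and has no block. The difference between numbers 2 and 3 counted as spread in it, so a missing call there says little. Whether the CD34 difference changed with number 4 was tested as an interaction, in which 0 of 9259 genes passed and 0 members had an unadjusted p under 0.05.

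Within libraries of the same number, each comparison set 1 CD34-positive against 1 CD34-negative library and has no test of its own. Most members were lower in value in the CD34-positive library in 3 of 4 comparisons. In number 3, 69 of 74 were lower in value (48.9% of all tested genes), with a median log2 difference of −0.16 against 0.005 for all tested genes. In number 2, 57 of 74 were lower (40.8%), with medians of −0.22 and 0.13. In number 4, 4-positive was lower than 4-negative for 34 of 74 (50.3%), with a median of 0.04 against −0.003, and lower than 4a-negative for 66 of 74 (51.4%), with a median of −0.33 against −0.015. The last 2 comparisons share the CD34-positive library, so they are not independent. Against the spread between the 2 CD34-negative libraries, whose member medians were 32.8 and 47.1 FPKM, the CD34-positive library at 34.3 FPKM lay between them.

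**Figure D4:**
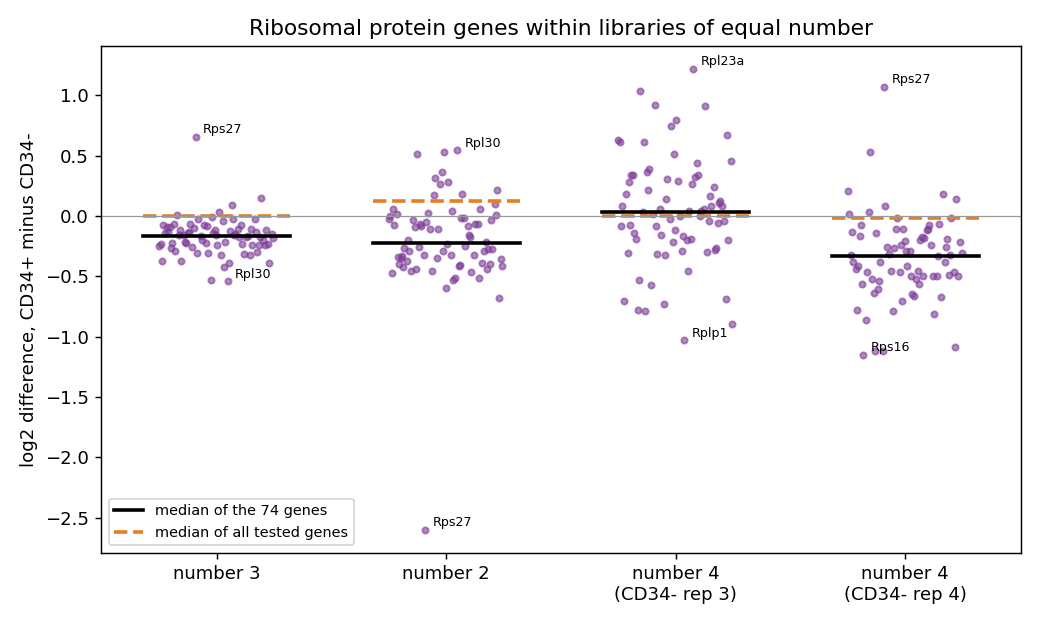
Log2 difference, CD34-positive minus CD34-negative, of each ribosomal protein gene within libraries of equal number, with the members' median as a black bar and that of all tested genes as a dashed line. The members' medians are −0.16 in number 3, −0.22 in number 2, 0.04 against 4-negative (CD34- rep 3) and −0.33 against 4a-negative (CD34- rep 4), and Rps27 and Rpl30 change side between numbers.

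22 members were lower in the CD34-positive library in each of the 4 comparisons, or 29.7%, where 18.9% of all tested genes were. None was higher in each, where 21.4% of all tested genes were. With the mean of the 2 CD34-negative libraries numbered 4, 37 members were lower in each of the 3 numbers, against 25% of all tested genes. Among the 22 were Rplp0 and Rplp1 of the stalk, Rpl11, Rps14 and Rps19, Rps2, Rps3 and Rps9. Rplp0 differed by −0.39, −0.68, −0.19 and −0.49 in numbers 3, 2, 4 and 4a, and Rps2, which helps form the entry channel of the messenger RNA, by −0.39, −0.41, −0.45 and −0.45. Rplp1 differed by −0.21, −0.52, −1.03 and −0.66. Rplp2, the third stalk gene, was lower in numbers 3 and 2 (−0.37 and −0.45) and higher in the libraries numbered 4 (1.04 and 0.53), at levels of 0.556 to 2.20 FPKM.

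Among the widest differences within a number were those of Rps27, Rpl30 and Rpl23a. Rps27 stood at 87.5 and 139 FPKM in the libraries numbered 3, CD34-negative first, and at 800 and 131 FPKM in those numbered 2, and at 4.39, 3.86 and 9.22 FPKM in 4-negative, 4a-negative and 4-positive. Library 2-negative was therefore high, the other libraries numbered 2 and 3 lay between 87.5 and 139 FPKM, and the difference was 0.66 in number 3, −2.60 in number 2 and 0.92 and 1.07 in number 4. Rpl30 had 105 and 71.8 FPKM in number 3 and 221 and 322 FPKM in number 2, with differences of −0.54 and 0.55. Rpl23a, a docking site for factors at the tunnel exit, had 2738 and 2706 FPKM in number 2 and 2556 and 2287 FPKM in number 3. In the libraries numbered 4 it had 11.3, 39.5 and 27.6 FPKM, so that it differed by 1.22 between 4-positive and 4-negative and by −0.50 between 4-positive and 4a-negative.

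Promoters were matched by symbol in RefSeq (GRCm38.p6) for 55 of 74 members, as windows from 250 bases before to 50 bases after the annotated start. CCGGAAG, a site for ETS factors such as Gabpa, occurred on either strand in 23 of the 55 (41.8%) and in 9.93% of 27025 genes with such a window. GCCATNTT, the Yy1 motif, occurred in 11 of the 55 and in 6.96% of all genes, GGGCGG, a GC box, in 33 of the 55 and in 38.2%, and TATAAA in 6 of the 55 and in 15.7%. No motif holds a full copy of another, but matches on either strand may share several bases, so their counts are not independent. A cytosine followed by 4 pyrimidines directly at the annotated start, as in a TOP tract, was present on the coding strand in 23.6% of the 55 and in 3.01% of all genes. These matches describe the letters of the windows. The 27025 genes were not limited to the tested genes, which are the reference elsewhere in this report. In the libraries numbered 2 and 3 Gabpa averaged 9.41 FPKM and Yy1 30.9 FPKM, and in those numbered 4 they averaged 15.8 and 36.9 FPKM, with differences of 0.82 and 0.34 that did not pass.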

How the data were processed

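The authors deposited 1 FPKM value per gene symbol and library for 7 libraries of sorted EML cells. The submitters' processing notes list TopHat2, TopHat, Cuffdiff and 2 builds, mm9 and mm10. Versions, the build of each library, annotation, strand and the handling of reads that match several places are not given, so no coordinates are printed, values of genes with near-identical copies are uncertain, and fragment numbers are unknown.

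Symbols listed more than once (105 symbols, 322 rows) were left out. The minimum for testing, 1 FPKM in 3 libraries, left 9259 genes. On the log2(FPKM + 1) scale, which understates changes of low genes, limma 3.58.1 (R 4.3.3, mean-variance trend, two-sided) was fitted, and p-values were adjusted by Benjamini-Hochberg over the 9259 genes (threshold 0.05). Groups came from titles, where a genotype label reads CD43 for CD34, and numbers from descriptions. Same-numbered libraries deviated together from their group means (correlations 0.70, 0.92, 0.82 and 0.85, others −0.86 to 0.37), so the number was taken to pair them. These correlations include the difference between number 4 and the other numbers, so they do not show that same-numbered libraries are matched samples. In simulated data for the number comparison, 15 of 50 genes changed by 1 and 49 of 50 changed by 4 (log2) were recovered among 9259.

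A coding stretch (GENCODE M21, principal transcript, available for 94.2% of the other tested genes) counted as shared where its 50 bases occurred, in the same sense, in a transcript of another gene. Named genes were those of highest level, largest and smallest fall and CD34 difference, the stalk genes, Rpsa, 10 Diamond-Blackfan genes and the 3 highest of each other list. Rpl26, Rpl34, Rpl15, Rps6, Rps21, Rpl7a, Rps27, Rpl30, Rpl23a, Rps2, Rpl32, Rps15, Gabpa and Yy1 were named after their values were seen. Some genes and sequences are not reported here, although counts include them. The members and lists were chosen with earlier results of these data known. Alternatives were other pseudocounts, filters and scalings, a block by number, single libraries left out and 4-negative and 4a-negative averaged. Fits without the libraries numbered 4 and an interaction term were added after seeing the data.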

Additional observations from a re-analysis of the deposited data

How the results depend on the processing

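The ribosomal protein genes kept their direction in the libraries numbered 4 under each alternative, quantile normalization excepted, and 65 to 74 of them fell. Without single libraries the count was 70 to 73 and the median −5.78 to −5.48. It was 70 with no filter on low values and 72 with 4-negative and 4a-negative averaged. The median was −4.15 with quantile normalization, where 1529 genes rose, 1478 fell and 1 member rose, and −5.15 with scaling to the genes outside the list, where 1087 rose and 672 fell. Median-ratio scaling gave 1355 higher and 1524 lower, and averaging 4-negative and 4a-negative gave 197 higher. Without single libraries, 69 to 957 genes rose and 995 to 2832 fell. Under quantile normalization the differences of Rpl29, Rpl4, Rps3 and Rps9 were 0.19, 1.31, 0.13 and 0.99. Without the 100 highest genes outside the list, the members' mean share was 39.7% in the libraries numbered 2 and 3 and 4.99% in those numbered 4. The cause of these changes was not tested.

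In the CD34 comparison, 0 members passed under each alternative. The replicate block turned the members' median to −0.17 and the difference of Rpl11 to −0.58 (adjusted p = 0.149, limma), and called 0 genes, as did the fit without it. The median was −0.16 with 4-negative and 4a-negative averaged, where Rplp2 was −0.02 and Rpl11 −0.54. It was −0.18 without the libraries numbered 4, with and without the replicate block, where Rplp2 was −0.41 and Rpl11 −0.33, and that blocked fit called 1 gene higher and 2 lower. Without single libraries it was −0.31 to 2.69, Rps9 was −0.49 to 0.36, Rplp2 −0.10 to 5.41 and Rpl11 −0.72 to 3.70, and 0 to 15 genes were higher and 0 to 6 lower, with 15 and 6 without 3-negative. Rps9 was 0.02 with scaling to the genes outside the list. Depth is unknown, so values near or below 1 FPKM in the libraries numbered 4 may rest on few fragments.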
